A study of Homo sapiens with 2 samples.

Results

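The urokinase system is described here in HSC-3, an aggressive line established from squamous cell carcinoma of the human tongue, grown on Myogel and on plastic. The members are PLAU, PLAUR, PLAT, SERPINE2, SERPINB2 and SERPINB5, and every probe set whose platform annotation gives exactly 1 gene symbol, that symbol being a member, was taken. This gave 10 probe sets for 5 of the 6 genes, out of 19775 genes with a named probe set. No probe set carried the name SERPINB2 in the annotation used, and its level was not analysed here. The Myogel cells grew on a coating of Myogel, a matrix prepared from human uterine leiomyoma, and the plastic cells grew on uncoated wells. The cells on both surfaces carried a red fluorescent protein from a stable lentiviral transduction with a non-coding control sequence and had been selected with puromycin, and both were kept in medium with serum, ascorbic acid and hydrocortisone. For each surface, 90000 cells were seeded per well and the next day equal amounts of RNA from 3 wells were pooled for 1 array of the Affymetrix U133 Plus 2.0 type. With 1 array per surface no difference has a replicate check, and no p-value is given.

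Urokinase (PLAU) and tissue-type plasminogen activator (PLAT) are secreted serine proteases that cut plasminogen to plasmin, which degrades fibrin and other matrix proteins and activates latent proteases. Urokinase is held at the cell surface by its receptor (PLAUR), a lipid-anchored protein without a cytoplasmic part, and serpins trap or restrain these proteases. The system is known in squamous carcinoma for its activity at the invasive edge.

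The promoter windows of the members were searched for a short motif, because several of these genes are known targets of the transcription factor AP-1, which binds the letters TGAGTCA or TGACTCA. RefSeq promoter windows of 300 bases (250 before and 50 after a start site, GRCh38.p14) were matched by symbol for PLAU, PLAUR, SERPINE2, SERPINB2 and SERPINB5, with 2 windows each for PLAU and SERPINE2. Searched on both strands, the wider motif TGANTCA, which includes both, occurred in 1 window each of PLAUR, SERPINB5 and SERPINB2, and in 7.71% of all 35116 windows of this length. The stretches below run 5′ to 3′ on the strand of the gene, with the matching letters in capitals, from chr19:43670338-43670366 (minus strand), chr18:63476801-63476829 (plus strand) and chr18:63887592-63887620 (plus strand).
PLAUR: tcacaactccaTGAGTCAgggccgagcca
SERPINB5: taacttcagccTGAATCAtttctttcaat
SERPINB2: gagtaaaatgtTGAATCActcaaaggaca
The PLAUR match began 186 bases before the start site, the SERPINB5 match 146 and the SERPINB2 match 102. Only the PLAUR match among these windows had the letters TGAGTCA or TGACTCA, which occurred in 4.95% of all windows. The match is a description of these letters, and it was not tested whether any factor bound there.

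In their brightest probe sets, the 5 measured members stayed within a fold change (FC, Myogel over plastic) of 1.5 in either direction. PLAT, SERPINE2 and PLAU had higher values on Myogel, by 1.28-fold, 1.28-fold and 1.13-fold, and PLAUR and SERPINB5 had values within 1.06-fold of those on plastic. None of the 5 genes reached FC 1.5, whereas 27.3% of all 19775 genes did (9.71% higher and 17.5% lower on Myogel), most of them dim. Of the 13262 genes whose higher value reached the median signal of 56.1, the share was 10.5%. The median log2 FC of the 5 genes was 0.17, beside -0.07 over all genes and -0.05 over the genes that reached the median signal. The median was 0.064 over the 10 member probe sets, and -0.064 over the 5 genes when each was given the mean over its probe sets. Its sign thus depends on the choice of probe set. Of the 10 probe sets, 1 passed FC 1.5 upwards and 0 downwards, beside 13.8% upwards and 24.2% downwards, together 38.0%, of all 54613 probe sets. All 10 log2 FCs lay inside the central 95% of values of the 1000 probe sets of most similar signal, a range which serves here as the measure of spread in place of replicates.

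**Figure D1:**
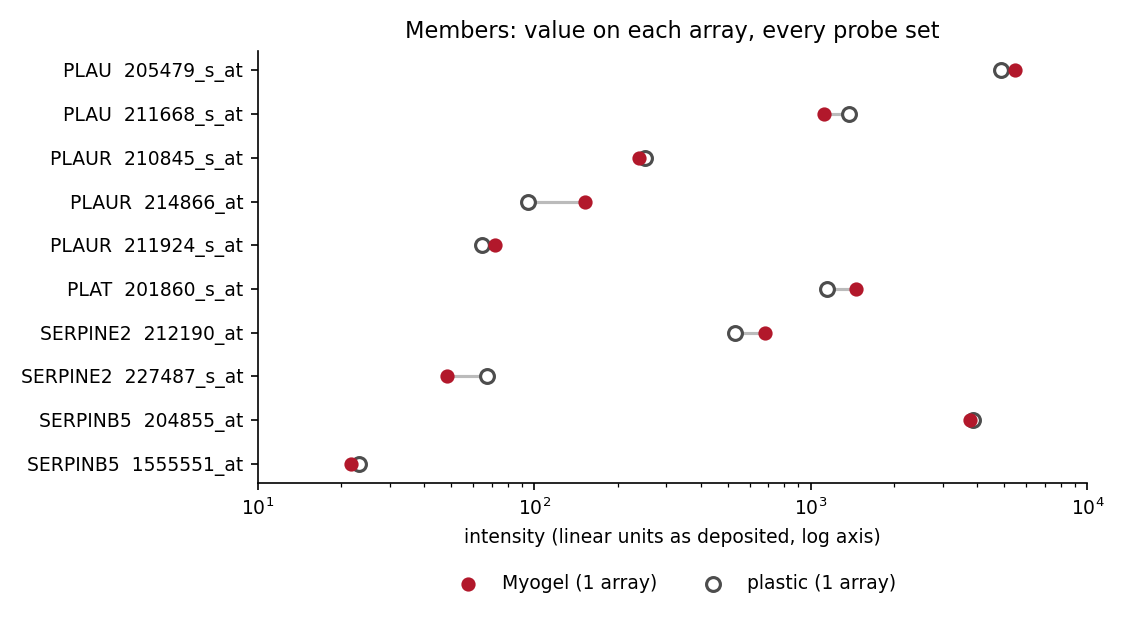
Intensity of each member probe set on the Myogel array (red) and the plastic array (open grey), in the deposited linear units on a log axis; each point is 1 array of pooled RNA, so there are no error bars. The points of a probe set lie close together throughout, with the widest gap for PLAUR probe set 214866_at (152 on Myogel, 94.6 on plastic).

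Among the proteases, PLAU was measured by 2 probe sets, which went opposite ways. The brighter one, 205479_s_at, had a value of 5482 on Myogel and 4868 on plastic, a log2 FC of 0.17, in a range of -0.30 to 0.26 at like signal. The other, 211668_s_at, had 1118 on Myogel and 1375 on plastic, a log2 FC of -0.30 with a range of -0.52 to 0.46 at like signal. The mean over both was -0.064, so the direction of PLAU depends on the probe set. PLAT, whose product is best known for dissolving clots in vessels, had 1 probe set, 201860_s_at, with a value of 1457 on Myogel and 1139 on plastic. Its log2 FC of 0.36 lay inside the range of -0.52 to 0.47, near its upper end, and with 1 probe set it could not be set against another.

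PLAUR, the urokinase receptor, had 3 probe sets. The brightest, 210845_s_at, gave 238 on Myogel and 252 on plastic, a log2 FC of -0.08. The second, 214866_at, gave 152 on Myogel and 94.6 on plastic, which is 1.61-fold higher, and it alone among the member probe sets passed FC 1.5. The dimmest, 211924_s_at, gave 72.35 on Myogel and 64.8 on plastic, a log2 FC of 0.16. The receptor was thus higher on Myogel in 2 of 3 probe sets, though not in the brightest. Around 214866_at the range at like signal was -0.94 to 0.74, and 16.6% of its neighbours passed FC 1.5, so that its log2 FC of 0.68 was not beyond this spread. Its difference between the arrays was 57.4 linear units.

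**Figure D2:**
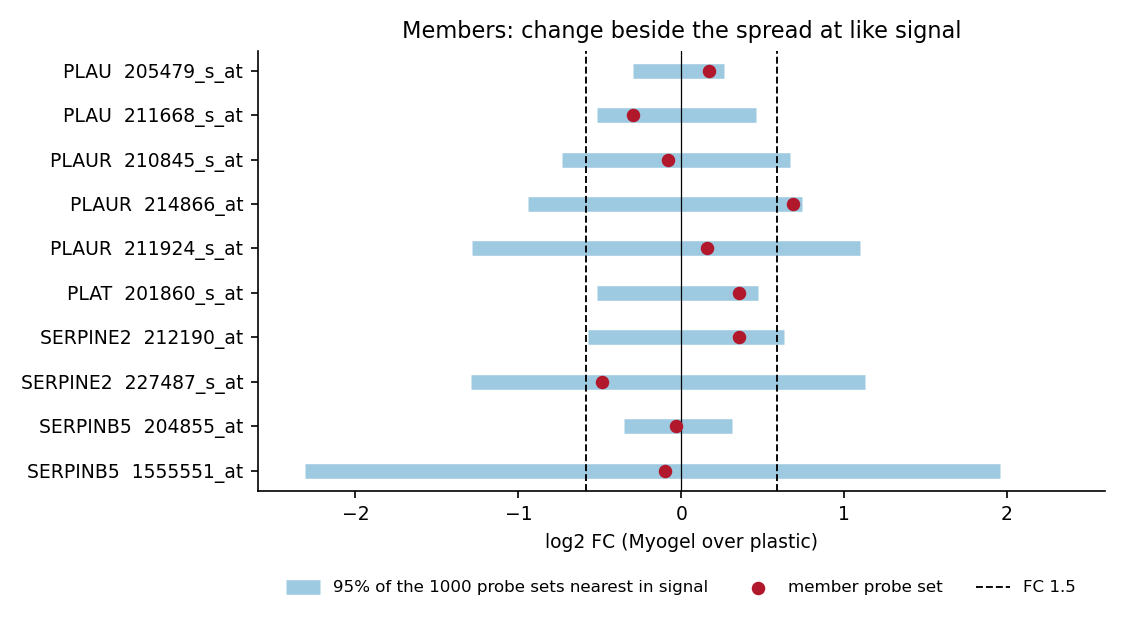
Log2 FC of Myogel over plastic (x axis) for each member probe set (red points), with the range of the central 95% of the 1000 probe sets nearest in signal (blue bars) and FC 1.5 (dashed lines). All 10 points lie inside their bars, and PLAUR probe set 214866_at at 0.68 is the only one beyond a dashed line.

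SERPINE2, also called protease nexin, inhibits urokinase, plasmin and thrombin outside the cell. Its brighter probe set, 212190_at, had 680.35 on Myogel and 532 on plastic, which is 1.28-fold higher, with a log2 FC of 0.36 and a range of -0.57 to 0.63 at like signal. Its dimmer one, 227487_s_at, had 48.3 on Myogel and 67.6 on plastic, which is 1.40-fold lower, and 33.8% of its neighbours in signal passed FC 1.5. These probe sets lay 0.84 apart on the log2 scale, the widest gap within a member, against 0.76 for the 3 of PLAUR, 0.47 for PLAU and 0.07 for SERPINB5.

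SERPINB5, or maspin, is a serpin of normal epithelium that does not inhibit proteases in the usual way and is known as a suppressor of invasion. It had 3765 on Myogel and 3849 on plastic in probe set 204855_at, a log2 FC of -0.03 in a range of -0.35 to 0.31, which was the smallest change among the 10 probe sets. Its other probe set, 1555551_at, was dim, with 21.7 on Myogel and 23.25 on plastic, and was the only member probe set below the median signal on both arrays. Its log2 FC was -0.10, where 59.5% of its neighbours in signal passed FC 1.5.

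Of the 4 members with at least 2 probe sets, the 2 brightest went opposite ways in 3 (PLAU, PLAUR and SERPINE2). Over all 10523 genes with at least 2 probe sets this share was 44.8%, and it was 43.5% of the 6299 genes in which both were at or above the median signal. The sign of the log2 FC on these arrays therefore often differed between the 2 brightest probe sets of a gene, among the members as among genes at large. These shares were taken without regard to the size of the change.

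The arrays were not scaled further, and the median log2 FC over all probe sets was -0.11. Setting this median to 0, quantile normalization and loess centring kept the brighter probe sets of PLAU, PLAT and SERPINE2 above 0 and within FC 1.5, with log2 FCs of 0.28, 0.46 and 0.46 in the first of these. PLAUR probe set 214866_at stayed beyond FC 1.5 with log2 FCs of 0.79, 0.81 and 0.83 under the 3 scalings. The brightest probe sets of PLAUR and SERPINB5 remained near 0, with log2 FCs between -0.01 and 0.07, so that their sign depended on the scaling.

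**Figure D3:**
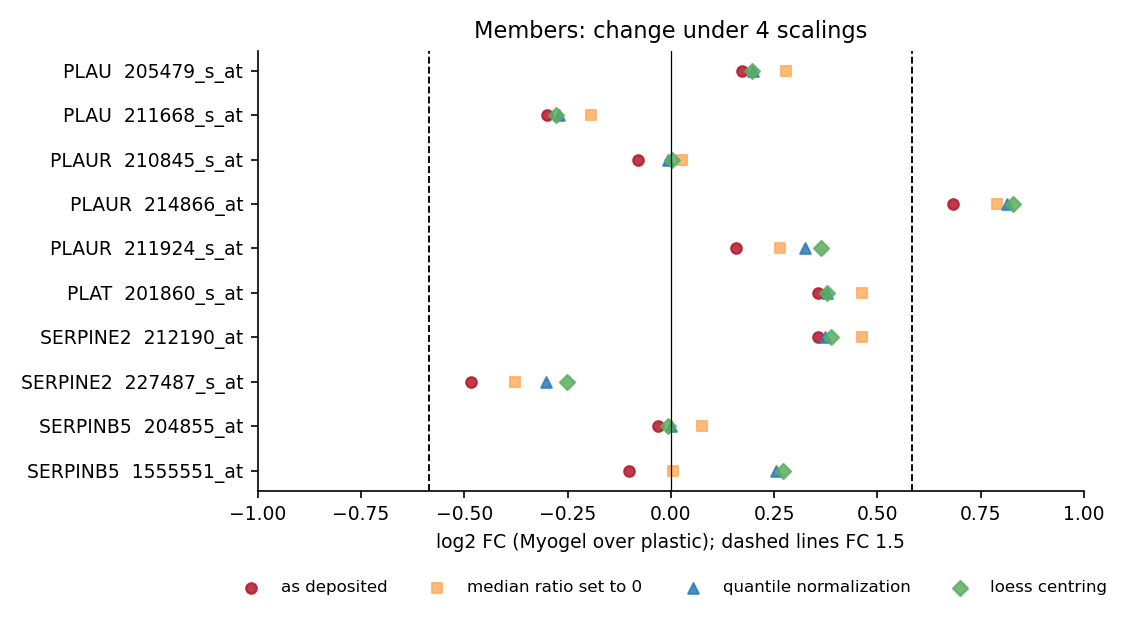
Log2 FC of Myogel over plastic (x axis) for each member probe set as deposited (red circles), with the median ratio set to 0 (orange squares), after quantile normalization (blue triangles) and after loess centring (green diamonds); dashed lines mark FC 1.5. Only PLAUR probe set 214866_at lies beyond a dashed line, under all 4 scalings.

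All 6 measured markers of squamous epithelium had values of 1000 or more on both arrays, with KRT14, a keratin of basal cells, at 18224 on Myogel and 18856 on plastic. The summed level of 8 smooth muscle markers, the tissue Myogel is made from, was 803 on Myogel and 853 on plastic. Of these, CNN1 and CASQ2 had the floor value of 1 on Myogel, and CASQ2 had only 1.26 on plastic. MYH11 (174 on Myogel, 198 on plastic), SYNPO2 (172 on Myogel, 203 on plastic) and SMTN (88.4 on Myogel, 136 on plastic) were also lower on Myogel. LMOD1, DES and ACTG2 were higher there, such as DES with 63.5 on Myogel and 43.0 on plastic. The sums were 783 on Myogel and 765 on plastic for 8 fibroblast markers. They were 335 on Myogel and 429 on plastic for 6 endothelium markers, and 636 on Myogel and 651 on plastic for 5 blood markers. Of the endothelium markers 5 passed FC 1.5, TEK upwards and the others downwards, beside 27.3% of all genes in either direction. Only 3 of the 6 reached the median signal. The 23 labelling spike-ins at or above the median signal were all lower on Myogel, with a median log2 FC of -1.73, and of 18 hybridisation spike-ins 17 were lower, with a median of -0.36. The signal of control probe sets at the 3′ over the 5′ end of the transcript was 6.10 on Myogel and 3.19 on plastic for actin, and 1.22 on Myogel and 1.10 on plastic for GAPDH. The part of the spike-ins and of these end ratios in the members' values was not tested.

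Beyond the members, 66 genes of plasminogen activation and related serpins were listed, of which 62 were measured. In their brightest probe sets 0 passed FC 1.5 upwards and 14 downwards, which is 22.6%, beside 27.3% of all genes in either direction and 17.5% in the lower direction. With quantile normalization these counts were 3 and 9, and with loess centring 4 and 9, without a share of all genes at these scalings beside them. Of the 14, only 4 had a value at or above the median signal. The median log2 FC was -0.09, beside -0.07 over all genes.

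PLG and the genes for surface proteins that bind plasminogen stayed within FC 1.5 in their brightest probe sets. Of 5 measured genes in the list of plasminogen, other activators and a carboxypeptidase, 0 passed FC 1.5 upwards and 1 downwards. The shares over all genes were 9.71% and 17.5%. The lower gene, named after its values were seen, was CPB2, with a dim 7.99 on Myogel and 22.4 on plastic. In the brightest of its 3 probe sets PLG, which encodes plasminogen, had 103.5 on Myogel and 89.0 on plastic. Its others were below the median signal, 240033_at with 48.7 on Myogel and 43.4 on plastic and 209977_at with 2.99 and 5.32. The mean log2 FC over the probe sets of PLG was -0.15, so its direction depends on the probe set. F12, coagulation factor XII, had 903 on Myogel and 971 on plastic. Of 6 measured genes for surface proteins that bind plasminogen, 0 passed FC 1.5 in either direction. All of them reached the median signal, where the share over all such genes was 10.5%, beside 27.3% of all genes. ENO1, enolase, had 13709 on Myogel and 13637 on plastic, and S100A10, the annexin A2 partner that binds tissue-type activator and plasminogen, had 13650.2 on Myogel and 13749 on plastic. Their values were thus alike on both arrays in these probe sets, and the mean over the probe sets of ENO1 was -0.22 on the log2 scale and that of S100A10 was 0.19.

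Of 16 measured genes for receptors and partners of urokinase receptor complexes, 0 passed FC 1.5 upwards and 3 downwards, beside 9.71% and 17.5% of all genes. The lower ones, named after their values were seen, were the formyl peptide receptors FPR1, FPR2 and FPR3, all below the median signal. In its brightest probe set FPR2 had 5.47 on Myogel and 29.5 on plastic. Each of these genes also had a dimmer probe set that was higher past FC 1.5. That of FPR2, 210772_at, had 15.8 on Myogel and 6.93 on plastic, so the direction of these genes differed between probe sets. ITGB1, the integrin beta chain shared by fibronectin and laminin receptors, had 13255 on Myogel and 13152 on plastic in its brightest probe set. The next in signal, named after their values were seen, were lower and just outside their ranges, 1553678_a_at with 6302 on Myogel and 8095 on plastic (log2 FC of -0.36) and 1553530_a_at with 4758 on Myogel and 5864 on plastic (-0.30). ITGB1 thus differed between its bright probe sets. EGFR, the growth factor receptor that the urokinase receptor can signal with, had 8411 on Myogel and 8012 on plastic in its brightest probe set, a log2 FC of 0.07. The next in signal, named after their values were seen, were 201983_s_at (4770 on Myogel, 4777 on plastic) and 201984_s_at (3758 on Myogel, 4375 on plastic). The latter had a log2 FC of -0.22, inside its range, and the mean over the 9 probe sets of EGFR was 0.13.

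Of the genes that share the Ly6 fold of the urokinase receptor, 4 of 10 measured passed FC 1.5 downwards and 0 upwards, beside 17.5% and 9.71% of all genes. LY6E, a lipid-anchored protein of the Ly6 family, had 239 on Myogel and 457 on plastic, which is 1.91-fold lower, and its log2 FC of -0.93 lay below the range of -0.67 to 0.57 at like signal. LY6E had 1 probe set, and it was the only one of the 62 genes whose brightest probe set lay outside its range. Among the other probe sets of these genes, 6 of 80 did, from ITGB1, LYPD6, ST14, MET and SERPINB1. With LY6E this made 7 of 142 probe sets. Each range holds only 95% of the probe sets nearest in signal, so a few lie outside it by construction. These counts thus do not set LY6E apart from what the range itself allows. LYPD6, a relative that acts in WNT signaling, was 2.02-fold lower (42.9 on Myogel, 86.8 on plastic), inside its range of -1.18 to 1.41. Of its other probe sets 1 was lower and just outside its range (29.2 on Myogel, 83.0 on plastic) and 1 was higher (42.5 on Myogel, 35.2 on plastic). The others, LYPD1 and SLURP1, named after their values were seen, were below the median signal.

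Of 9 measured genes of matriptase and hepatocyte growth factor activation, which shares proteases and substrates with the urokinase system, 0 passed FC 1.5 upwards and 1 downwards, beside 9.71% and 17.5% of all genes. MET, the receptor of hepatocyte growth factor, had 4879 on Myogel and 4810 on plastic in its brightest probe set. The next in signal, 213816_s_at, named after its values were seen, was 1.83-fold higher (547 on Myogel, 299.65 on plastic), and its log2 FC of 0.87 lay above the range of -0.68 to 0.63. The remaining probe sets of MET were lower within FC 1.5, so the direction of this gene differed between them. SPINT2, a Kunitz inhibitor of matriptase, had 3385 on Myogel and 2904 on plastic, a log2 FC of 0.22. The lower gene, named after its values were seen, was HGFAC, with a dim 21.7 on Myogel and 40.0 on plastic. Among 6 measured serpins and related inhibitors of the activators and of plasmin, 3 had higher and 3 lower values on Myogel. Of these, 0 passed FC 1.5 upwards and 1 downwards, beside 9.71% and 17.5% of all genes. The lower one, SERPINA5, the protein C inhibitor (42.5 on Myogel, 65.8 on plastic), was inside the range for its signal, where 35.8% of its neighbours passed FC 1.5.

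SERPINB5 and SERPINB2 lie in a row of 10 clade B serpins on chromosome 18 in the RefSeq table, of which 9 had a named probe set and 4 were at or above the median signal. In chromosomal order, SERPINB5, SERPINB13, SERPINB7 and SERPINB8 are those 4. SERPINB13, a serpin of keratinocytes that inhibits lysosomal cathepsins, had 181 on Myogel and 275 on plastic, which is 1.52-fold lower. Its next probe set in signal, 211361_s_at, named after its values were seen, was lower too (149 on Myogel, 210 on plastic). The mean over its 6 probe sets was 0.43 on the log2 scale, but the remaining ones were all below the median signal. SERPINB7, named after its values were seen, had 839 on Myogel and 709 on plastic, a log2 FC of 0.24. SERPINB8, likewise, had 186 on Myogel and 158 on plastic, a log2 FC of 0.24. Of 10 measured clade B serpins other than the members, here and elsewhere in the genome, 4 passed FC 1.5 downwards and 0 upwards, beside 17.5% and 9.71% of all genes. Apart from SERPINB13 these were SERPINB3, SERPINB10 and SERPINB11, named after their values were seen, which were 1.65-fold, 2.32-fold and 3.99-fold lower, below the median signal and inside their ranges. The dim SERPINB4 and SERPINB12 had log2 FCs of 0.44 and 0.25. The bright genes of the row thus stood at log2 FCs of -0.61 to 0.24, with SERPINB5 close to 0.

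**Figure D4:**
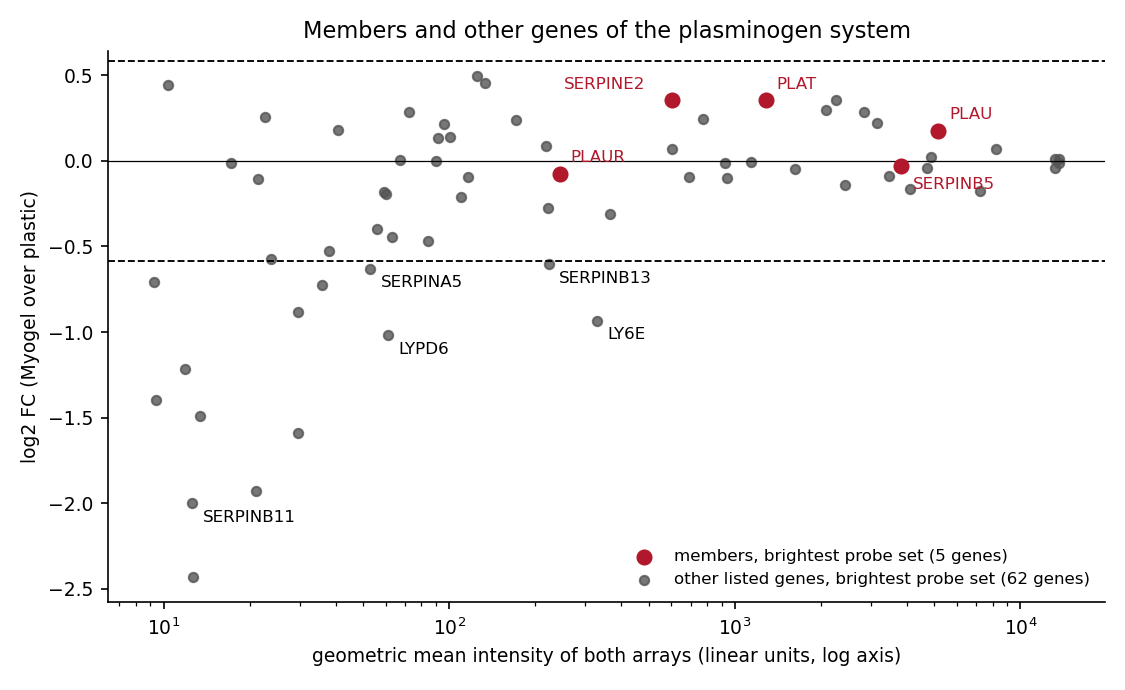
Log2 FC (Myogel over plastic, y axis) against the geometric mean intensity of the 2 arrays (x axis, log scale) for the brightest probe set of 5 members (red) and 62 other listed genes (grey); dashed lines mark FC 1.5. The members lie between the lines, and the genes beyond the lower line are mostly at the dim end, with LY6E as the brightest of them.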

How the data were processed

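The deposited intensity values are linear, were made by the authors with the dChip software, and have a floor of 1. Its version and any normalization are not given in the sources used. Groups came from the titles of the samples; a protocol label gives uncoated plates for both, which the titles and the paper's methods contradict for Myogel. FC was computed as Myogel over plastic for 54613 probe sets without further scaling, with the threshold of 1.5 of the paper's methods. No filter on signal or difference was combined with it, and whether the authors combined one is not given, so shares of probe sets past FC 1.5 need not compare with counts made by the authors. Of these, 41091 had 1 gene symbol, 1801 several and 11721 are unnamed here. Symbols were updated by Entrez identifier through RefSeq (GRCh38.p14). A gene was represented by its brightest probe set (by mean log2 value). Spread is the range holding 95% of the 1000 probe sets nearest in mean log2 value.

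The members and lists were chosen with earlier results of these data known. Named beyond the members were, in each list, the genes that passed FC 1.5 and reached the median signal of 56.1, or else the 2 brightest. Alternatives were quantile normalization, loess centring (span 0.3), a median ratio of 0, offsets of 16 and 50, the mean over probe sets, leaving out _x_at, _s_at and _a_at probe sets, a filter at the median signal, FC 1.2 and FC 2, and a difference of 100 units. The number of arrays limits the precision. The procedure was tested on simulated data in which changes of FC 2 in either direction were set in the brighter probe sets. Smaller changes, and changes in dim probe sets, were not simulated. The tools were Python 3.11.15 with matplotlib 3.10.9, statsmodels 0.14.6, pandas 2.3.3 and numpy 2.4.6.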

Additional observations from a re-analysis of the deposited data

How the results depend on the processing

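Of the members, PLAT was higher on Myogel under its 6 alternatives, with log2 FCs of 0.34 to 0.46. As PLAT has 1 probe set, the mean over probe sets returns the same value, and an offset cannot change the sign. Only the scalings could have changed its direction. With the mean over probe sets, PLAU had a log2 FC of -0.064 and SERPINE2 of -0.064, and the median over the 5 members changed sign to -0.064. When _x_at, _s_at and _a_at probe sets were left out, PLAUR had 0.68, so that 1 of the 3 members left passed FC 1.5 upwards; PLAU and PLAT then had no probe set. With FC 1.2, 2 members were higher and, of the 10 member probe sets, 3 were higher and 2 lower. Except for genes with the filter on low signal, no share over all features is given for the alternatives. Whether the counts under them, here or for the other genes below, are unusual was thus not tested. The count of member probe sets that were higher was 0 with FC 2, with an offset of 50, or with a difference of 100 linear units.

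For the 62 other genes, the count of higher ones (0 as reported) was 3 after quantile normalization, 4 after loess centring, 1 with the median ratio set to 0, 4 when _x_at, _s_at and _a_at probe sets were left out and 7 with FC 1.2. The count of lower ones (14 as reported) was 9 under quantile normalization and 9 under loess centring, 7 and 2 with offsets of 16 and 50, 4 with the filter on low signal, 21 with FC 1.2, 8 with FC 2 and 1 with a difference of 100 linear units. SERPINB13 turned to 0.43 with the mean over probe sets and to 1.00 without the _x_at, _s_at and _a_at ones. That 1.00 is the value of probe set 215817_at, which was below the median signal (32.4 on Myogel, 16.2 on plastic). The alternatives for single genes that are not members were chosen after seeing the data. Why these values moved was not tested beyond what each alternative leaves out. SERPINB2 had no value under any alternative. No paired analysis was possible because each surface is 1 array. Around the 3 dimmest member probe sets, 30.2% to 59.5% of the neighbours in signal passed FC 1.5, which limits what can be read from them.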
